A study of Rattus norvegicus with 6 samples.

Results

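The genes described here are the 8 enzymes that turn lanosterol into cholesterol and are listed under the symbols Cyp51, Tm7sf2, Msmo1, Nsdhl, Hsd17b7, Ebp, Sc5d and Dhcr7. They were found by gene symbol in the deposited table of 26126 entries, and all 8 were present and tested among 14488 entries that passed a filter on low counts. The set is a biochemical one, but it was chosen from the difference between the groups in these same libraries, where genes of sterol synthesis were already known to lie higher with adPERK. The differences between groups given for these 8 genes are therefore a description, and no p-value is attached to any of them.

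The samples are 3 libraries of H9c2 cells given an adenovirus labelled adPERK and 3 libraries of H9c2 cells given a control adenovirus. H9c2 is a cell line from embryonic rat heart, and it is 1 line that grows as myoblasts. Both groups went through the same simulated ischemia-reperfusion, in an acidic buffer of pH 6.2 with 2-deoxyglucose and lactate, under 95% nitrogen and 5% carbon dioxide for 30 min and then in a closed chamber for 1.5 to 3.5 h. The cells had been grown in medium with 10% fetal bovine serum. The labels name no promoter or species for the PERK insert and give no group without ischemia or without virus. Nothing in them says that replicates were separate cultures, so each error and p-value below covers how far these libraries differ, a spread that could be technical.

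Cholesterol is built in the endoplasmic reticulum from acetyl-CoA. The first part of the route makes mevalonate, squalene and then lanosterol, the first sterol, and the second part, shown here, strips methyl groups from lanosterol and moves or removes double bonds until cholesterol is left. The genes of the route are textbook targets of SREBP transcription factors, which are held in the endoplasmic reticulum when sterols are plentiful and reach the nucleus when sterols run low. In muscle and heart cells cholesterol is mainly a membrane component.

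Total counts ran from 89798433 to 119087414 in the adPERK libraries and from 77923398 to 111052659 in the control libraries. The low counts repeated at a period of 5.35 to 5.8, so a count may stand for fewer independent fragments than it says. Control replicate 3 had 19287 entries above 0, against 15377 to 16685 in the other 5 libraries. Eif2ak3, the gene of PERK, stood at 26.5, 26.5 and 26.0 CPM (counts scaled by library total with TMM factors) in adPERK replicates 1 to 3 and at 26.4, 26.9 and 24.0 CPM in control replicates 1 to 3 (log2 fold change 0.03, SE 0.06, edgeR adjusted p = 0.887), and without control replicate 3 the fold change was -0.0200. Eif2ak3 therefore does not check the labels, and each direction below is that of libraries labelled adPERK against libraries labelled control. Of 7 skeletal myoblast markers 6 were tested, and the summed level of those 6 was 717 to 743 CPM in the adPERK libraries and 770 to 826 CPM in the control libraries. Within that list 3 tested markers had a log2 fold change above 0 and 3 below 0, with a median of 0.02. The single marker called was Myog, a factor of myoblast differentiation, which was lower (log2 fold change -0.28, SE 0.03, edgeR adjusted p = 0.0137). That call was lost when any 1 library other than control replicate 1 was left out. Myog made up much of the summed level, at 390 to 408 CPM in the adPERK libraries and 474 to 493 CPM in the control libraries. Of 8 cardiac myocyte markers 5 were tested. The summed level of those 5 was 171 to 193 CPM in the adPERK libraries and 171 to 184 CPM in the control libraries. Tnnt2 made up most of that level, at 160 to 183 CPM in the adPERK libraries and 163 to 174 CPM in control libraries. Nppa, the gene of atrial natriuretic peptide, was at 0 counts in all 6 libraries. The endothelial list had 1 tested marker of 6, Tek, whose level was 0.638 to 0.877 CPM in the adPERK libraries and 1.29 to 1.56 CPM in the control libraries. Of 5 fibroblast markers 4 were tested and none was called, with 1 log2 fold change above 0 and 3 below 0. Col1a1 was at 9146 to 10577 CPM in the adPERK libraries and 8560 to 9802 CPM in the control libraries. Lum averaged 10.5 CPM in the adPERK group and 13.2 CPM in the control group, without overlap (edgeR adjusted p = 0.198). Krt8 (epithelial) averaged 41.3 and 39.4 CPM and Cd14 (leukocyte) 9.22 and 9.17 CPM in adPERK and control, and neither was called. The part of cell state or of other cells in the sterol values was not tested. In bulk RNA, more cells with a transcript and more transcript per cell cannot be told apart.

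Promoter sequences are shown for 4 of the enzymes, because these carry the extremes of the comparison. Cyp51 and Msmo1 are the members past the threshold of the test, Dhcr7 has the highest fold change and Ebp the lowest. The windows are RefSeq sequences of build GRCr8, from 250 bases before to 50 bases after each gene's start, 5′ to 3′ on the gene's strand. Capitals mark matches to CCAAT (the NF-Y box), GGGCGG (the GC box), CACCCCAC (a short form of the sterol regulatory element) and CACGTG (an E-box), on either strand.
Cyp51, chr4:30991443-30991742, strand +: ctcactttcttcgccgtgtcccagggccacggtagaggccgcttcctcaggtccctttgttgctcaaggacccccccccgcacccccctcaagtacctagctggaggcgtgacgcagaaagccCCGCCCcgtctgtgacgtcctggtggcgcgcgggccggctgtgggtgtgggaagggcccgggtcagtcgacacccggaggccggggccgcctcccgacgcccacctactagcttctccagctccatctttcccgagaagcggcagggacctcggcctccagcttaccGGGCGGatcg
Msmo1, chr16:29746863-29747162, strand +: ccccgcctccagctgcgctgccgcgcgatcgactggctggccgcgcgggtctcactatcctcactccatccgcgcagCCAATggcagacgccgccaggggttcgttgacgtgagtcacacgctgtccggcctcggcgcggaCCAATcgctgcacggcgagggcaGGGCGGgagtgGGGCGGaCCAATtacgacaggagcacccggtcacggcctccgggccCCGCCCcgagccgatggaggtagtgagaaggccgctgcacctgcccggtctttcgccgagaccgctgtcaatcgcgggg
Dhcr7, chr1:208444184-208444483, strand +: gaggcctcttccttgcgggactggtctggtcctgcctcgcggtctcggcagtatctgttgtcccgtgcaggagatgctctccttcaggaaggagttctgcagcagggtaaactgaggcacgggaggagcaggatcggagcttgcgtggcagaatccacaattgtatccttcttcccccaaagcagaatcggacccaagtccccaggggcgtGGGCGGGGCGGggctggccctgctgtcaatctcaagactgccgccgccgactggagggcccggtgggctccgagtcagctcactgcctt
Ebp, chrX:16971212-16971511, strand +: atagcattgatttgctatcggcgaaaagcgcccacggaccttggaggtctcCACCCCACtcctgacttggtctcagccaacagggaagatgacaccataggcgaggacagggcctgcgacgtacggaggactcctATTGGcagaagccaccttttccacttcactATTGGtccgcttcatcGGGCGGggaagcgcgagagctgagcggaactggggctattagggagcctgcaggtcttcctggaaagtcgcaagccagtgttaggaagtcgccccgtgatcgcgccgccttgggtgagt

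All 8 members had a window in the table. The sterol regulatory element searched as TCACNCCAC was in 0 of 8 windows, against 1.12% of all 33469 windows. The shorter CACCCCAC was in 1 of 8, that of Ebp, at position -199 from the start, against 2.70% of all windows. CCAAT was in 6 of 8 windows, against 37.5% of all, with 5 copies in Nsdhl, 3 each in Msmo1 and Hsd17b7 and none in Cyp51 or Dhcr7. GGGCGG was in 7 of 8, against 33.1% of all, and the exception was Nsdhl. The E-box was in 1 of 8, that of Sc5d, against 6.42% of all. The 8 windows held 57.3% to 71.0% G and C, against a median of 51.7% over all windows. The part of base composition in the share with a GC box was not tested. In Dhcr7 a pair of GC boxes overlapped, the single overlap among the 8 windows. The windows of Tm7sf2, Nsdhl, Hsd17b7 and Ebp start from a site 31, 59, 56 and 90 bases inside the outer edge of the RefSeq gene, so each of these covers less sequence beyond that edge. A match is a string of letters and no sign of binding, and a missing match says only that these letters are not in this window.

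In the libraries labelled adPERK the fitted level of all 8 enzymes lay above that in control libraries, by 1.07-fold for Ebp to 1.59-fold for Dhcr7. The median log2 fold change of the 8 was 0.37, against -0.0045 over all tested entries. Cyp51 and Msmo1 passed the threshold of edgeR's quasi-likelihood test after adjustment over the whole table, so 2 of 8 members were called higher, where 0.311% of all tested entries were called higher and 0.421% were called in either direction. For 6 of 8 members the lowest adPERK library lay above the highest control library, which held for 9.66% of all tested entries. Because this contrast chose the set, these shares describe the set and carry no weight as a test.

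**Figure D1:**
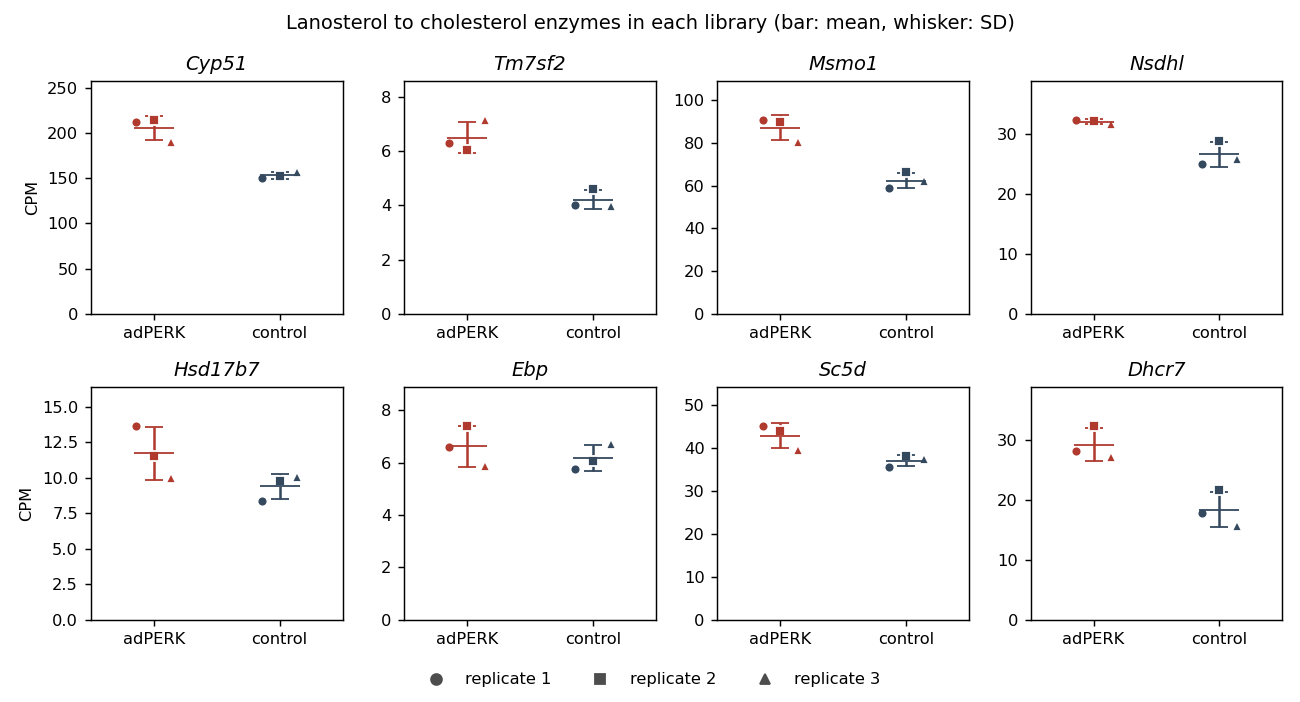
Level of each enzyme in CPM (y axis, from 0, a separate scale for each gene) in the 3 adPERK and the 3 control libraries (x axis); symbols are replicates, the bar is the mean and the whisker the SD. The adPERK libraries lie above all control libraries for Cyp51, Tm7sf2, Msmo1, Nsdhl, Sc5d and Dhcr7, and the groups overlap for Hsd17b7 and Ebp.

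Cyp51, the cytochrome P450 that opens this part of the route by removing a methyl group from lanosterol, stood at 212, 215 and 190 CPM in adPERK replicates 1 to 3 and at 150, 152 and 157 CPM in control replicates 1 to 3. The groups did not overlap, and the lowest adPERK library was 20.9% above the highest control library. The log2 fold change was 0.43 (SE 0.05, 95% interval 0.31 to 0.55). Its counts ran from 12261 to 25686 per library, the highest of the set, and its interval was the narrowest.

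Tm7sf2, a sterol reductase that removes the double bond left by Cyp51, was at 6.32, 6.04 and 7.16 CPM in the adPERK libraries and at 4.03, 4.62 and 3.99 CPM in the control libraries. The groups were 30.7% apart at their nearest point, the widest gap of the 8. The log2 fold change was 0.63 (SE 0.12), and it did not pass the threshold. The gene had 311 counts in its lowest library, where counting error alone is 5.67%, or 13.9% if counts come in steps of 6. Tm7sf2 was also the only member whose highest adPERK library was replicate 3.

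The next 3 enzymes act together to remove the methyl groups at the sterol's other methylated carbon. Msmo1, the methylsterol monooxygenase that oxidises them, had 90.8, 90.0 and 80.4 CPM in adPERK replicates 1 to 3 and 58.9, 66.1 and 62.0 CPM in control replicates 1 to 3. The lowest adPERK library was 21.6% above the highest control library, and the log2 fold change was 0.48 (SE 0.06, 95% interval 0.33 to 0.63).

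Nsdhl, the dehydrogenase that releases the oxidised carbon, had 32.4, 32.2 and 31.7 CPM in the adPERK libraries and 25.0, 28.9 and 25.9 CPM in the control libraries. The groups were 9.63% apart, and the spread within adPERK was the smallest of the set, with a coefficient of variation of 1.18% against 7.60% in control. The log2 fold change was 0.27 (SE 0.06) and did not pass the threshold.

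Hsd17b7, the keto-reductase that completes each round and also reduces estrone, had 13.7, 11.5 and 9.97 CPM in adPERK replicates 1 to 3 and 8.40, 9.78 and 10.1 CPM in control replicates 1 to 3. Here the groups overlapped, since adPERK replicate 3 was just below control replicate 3. The adPERK group averaged 11.7 ± 1.85 CPM and the control group 9.41 ± 0.889 CPM (SD, n = 3 each), with a log2 fold change of 0.32 (SE 0.14). The 15.8% coefficient of variation among adPERK libraries was the highest of the 8.

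**Figure D2:**
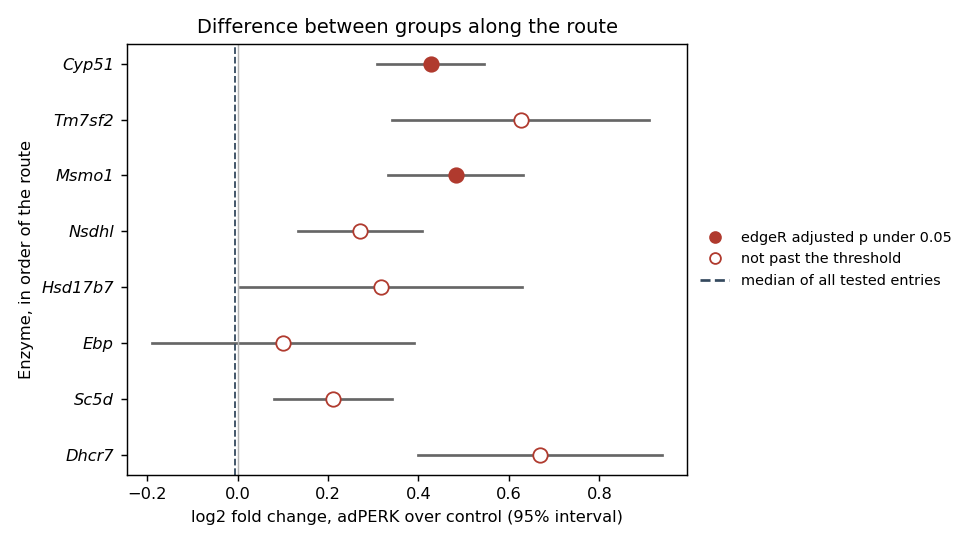
Log2 fold change of adPERK over control (x axis) for the 8 enzymes in the order of the route from top to bottom (y axis), with 95% intervals from the edgeR fit; the dashed line is the median of all tested entries and filled points passed an adjusted p of 0.05. Fold changes run from 0.10 for Ebp to 0.67 for Dhcr7, and the Ebp interval alone includes 0.

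The last 3 enzymes rearrange double bonds. Ebp, the isomerase that shifts the ring double bond and also binds the drug emopamil, had 6.59, 7.40 and 5.87 CPM in the adPERK libraries and 5.76, 6.06 and 6.71 CPM in the control libraries. The groups overlapped widely, with 1 of 3 adPERK libraries above the highest control library. The log2 fold change was 0.10 (SE 0.13, 95% interval -0.19 to 0.39). Its counts ran from 501 to 886 per library, and counting error at the lowest is 4.47%, or 10.9% if counts come in steps of 6. The part of depth in the overlap was not tested.

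Sc5d, the desaturase that adds a double bond, had 45.2, 44.0 and 39.7 CPM in adPERK replicates 1 to 3 and 35.6, 38.1 and 37.6 CPM in control replicates 1 to 3. The groups did not overlap but were only 4.06% apart. The log2 fold change was 0.21 (SE 0.06) and did not pass the threshold.

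Dhcr7, the reductase whose human gene is mutated in Smith-Lemli-Opitz syndrome and which competes with vitamin D synthesis for its substrate, had 28.2, 32.4 and 27.2 CPM in the adPERK libraries and 17.9, 21.6 and 15.7 CPM in the control libraries. The groups were 25.8% apart. The log2 fold change was the highest of the set at 0.67 (SE 0.12, 95% interval 0.40 to 0.94), and it did not pass the threshold. The coefficient of variation was 9.36% among adPERK libraries and 16.1% among control libraries. Among all tested entries, 2.72% had a larger rise than Dhcr7, 2.93% than Tm7sf2, 4.07% than Msmo1 and 4.73% than Cyp51, against 22.7% for Ebp.

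Fold changes above the set's median were those of Cyp51, Tm7sf2, Msmo1 and Dhcr7, which take the first 3 places and the last, and those of Nsdhl, Hsd17b7, Ebp and Sc5d between them were lower. Differences between members were not tested. The authors' deposited table, made from the same counts, gives log2 fold changes of 0.43 for Cyp51, 0.49 for Msmo1, 0.67 for Dhcr7 and 0.11 for Ebp. Levels of different enzymes are not compared here, because no transcript or coding length was used.

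Within each group the same library was often the low one for several of the 8 transcripts. Replicate 3 of adPERK was the lowest of its group for 7 of 8 members, with Tm7sf2 the exception. Control replicate 1 was below its group mean for 8 of 8 members and lowest in its group for 6, with Tm7sf2 and Dhcr7 lowest in control replicate 3. Relative to the control mean, the median over members was 0.51, 0.39 and 0.28 on the log2 scale in adPERK replicates 1 to 3 and -0.07, 0.07 and 0.0054 in control replicates 1 to 3. Summed over the 8 genes the level was 435, 438 and 392 CPM in adPERK replicates 1 to 3 and 305, 327 and 319 CPM in control replicates 1 to 3.

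**Figure D3:**
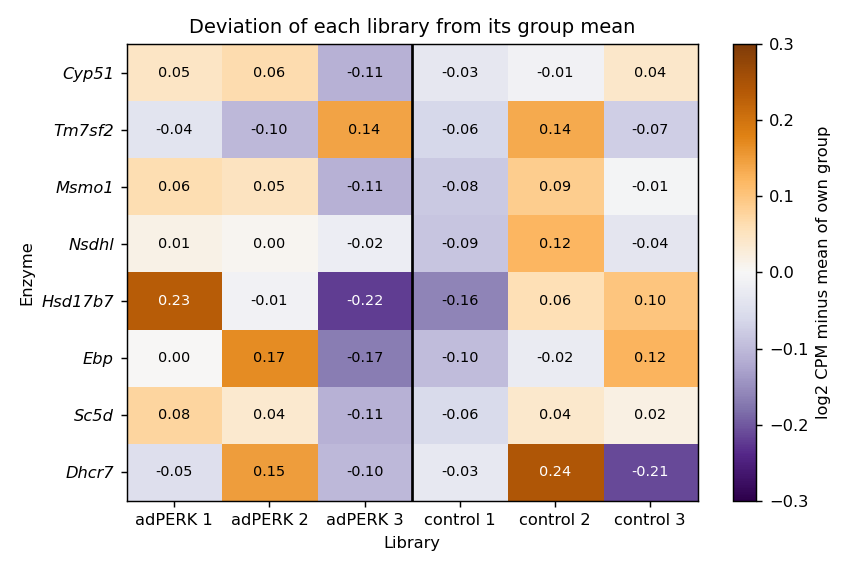
Log2 CPM of each enzyme (rows) in each library (columns, adPERK left of the line) minus the mean of that library's own group, with the value in each cell. The column of adPERK replicate 3 is negative for 7 of 8 enzymes and that of control replicate 1 for 8 of 8.

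Msmo1 followed the mean profile of the other 7 members most closely over the 6 libraries (Pearson r = 0.999), and Ebp least (r = 0.477). The entries outside the set whose profile was most like the members' mean, of 9052 that averaged 5 CPM or more and carried an ordinary symbol, were Il1r1 (r = 0.998), Col5a2 (0.989), Ccng1 (0.987), Bcat1 (0.986) and Ctsf (0.986). Il1r1 encodes an interleukin receptor, Col5a2 a collagen chain, Ccng1 a cyclin that p53 induces, Bcat1 a branched-chain aminotransferase and Ctsf a cathepsin. Their own log2 fold changes were small, from 0.10 for Col5a2 to 0.21 for Il1r1, and edgeR called none of the 5, with 5 at an unadjusted p below 0.05, while DESeq2 called Col5a2 and Ccng1. These are the top of a ranking over 6 libraries in 2 groups, and the difference between groups is part of each r. Their p-values and calls in that same contrast are therefore a description and carry no weight as a test.

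Of 5 other genes of the later route 3 were tested, with a median log2 fold change of 0.22. EdgeR called none of them, with 2 at an unadjusted p below 0.05, while DESeq2 and limma voom called 1 each. Lbr, the lamin B receptor, which shares the reductase step of Tm7sf2, had 24.4 ± 1.42 CPM in the adPERK group and 20.96 ± 0.781 CPM in the control group (SD, n = 3 each; log2 fold change 0.22, SE 0.06, edgeR adjusted p = 0.232). The oxidative steps need electrons from partner proteins. Of 6 such genes edgeR, DESeq2 and limma voom called 0, with 2 at an unadjusted p below 0.05 in edgeR. Those 2 went opposite ways, Cyb5a lower (log2 fold change -0.19, SE 0.05) and Cyb5r1 higher (0.14, SE 0.06). Their edgeR adjusted p-values were 0.233 and 0.425. Pgrmc1, a haem-binding partner of cytochromes P450, and Cyb5r3, which reduces cytochrome b5, had log2 fold changes of 0.07 and 0.03 (edgeR adjusted p = 0.576 and 0.868), and that of Cyb5r3 was -0.0021 without control replicate 2. The 6 had a median of 0.03.

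All gene lists here were chosen with earlier results of these data known, so their counts and adjusted p-values are a description. Across all tested entries 0.311% were called higher. Upstream of lanosterol, 5 of 11 genes were called higher and none lower, with a median log2 fold change of 0.32. They were Hmgcs1, which makes HMG-CoA (0.45, edgeR adjusted p = 0.011), Fdft1, squalene synthase (0.42, adjusted p = 0.0244), Idi1, an isopentenyl isomerase (0.41, adjusted p = 0.0461), Fdps, farnesyl diphosphate synthase (0.36, adjusted p = 0.02), and Acat2, a thiolase (0.31, adjusted p = 0.0496). The summed level of the 11 was 753, 773 and 730 CPM in adPERK replicates 1 to 3 and 573, 591 and 596 CPM in control replicates 1 to 3. Here too adPERK replicate 3 was the lowest of its group and control replicate 1 the lowest of its own. By summed level adPERK replicate 3 was also lowest for the electron donors and the genes of fatty acid synthesis and desaturation. Replicate 1 of adPERK was lowest for the other genes of the later route and for SREBP control and uptake, replicate 2 for efflux genes. Among 12 genes of SREBP control and cholesterol uptake, 2 were called higher and none lower (median 0.12). Insig1, itself an SREBP target, whose protein holds SREBP in the endoplasmic reticulum when sterols are plentiful, was among them (0.67, SE 0.06, edgeR adjusted p = 0.00841). With 1 library left out, the count upstream of lanosterol was 0 without adPERK replicate 1, 1 without adPERK replicate 2 or control replicate 1, and 2 without adPERK replicate 3, control replicate 2 or control replicate 3. Insig1 was called in each of the 16 fits except that without adPERK replicate 1.

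**Figure D4:**
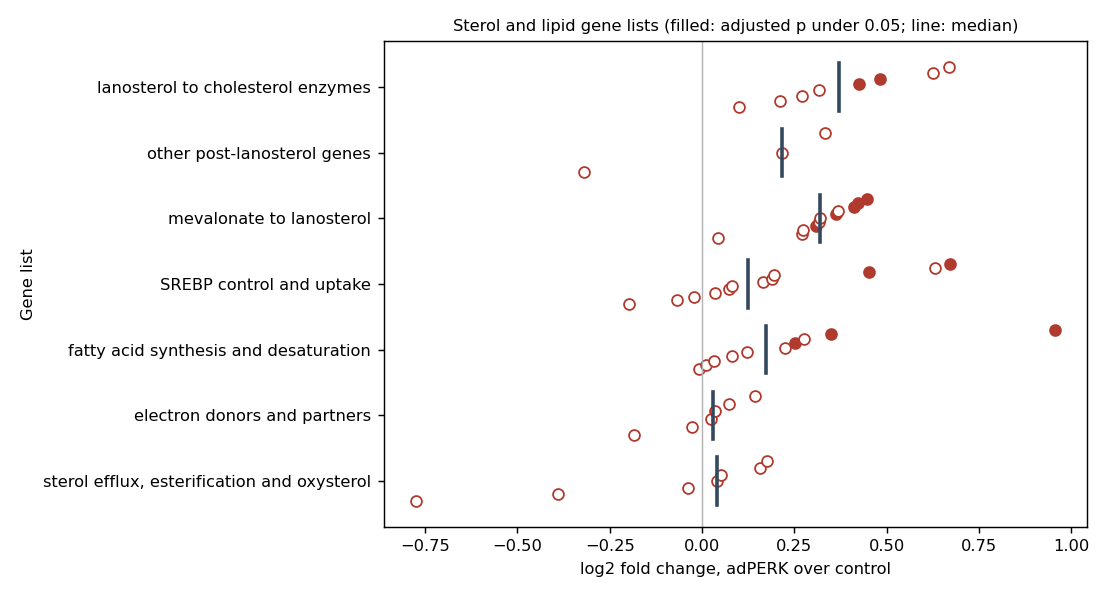
Log2 fold change of adPERK over control (x axis) for each tested gene of 7 sterol and lipid lists (y axis); filled points passed an edgeR adjusted p of 0.05 and the vertical line is the list's median. The medians are 0.37 for the lanosterol to cholesterol enzymes and 0.32 for the mevalonate to lanosterol genes, against 0.03 for electron donors and 0.04 for efflux genes.

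Against 0.311% of all tested entries called higher, 3 of 10 genes of fatty acid synthesis and desaturation were called higher and none lower (median 0.17). These were the desaturases Scd (0.96, SE 0.11, edgeR adjusted p = 0.0155), Scd2 (0.35, adjusted p = 0.0137) and Fads1 (0.25, adjusted p = 0.0424). The count was 0 without any 1 of the adPERK libraries, 1 without control replicate 3 and 2 without control replicate 1 or control replicate 2. Of 9 genes of sterol efflux, esterification and oxysterols 7 were tested (median 0.04), and edgeR called none, with 3 at an unadjusted p below 0.05, while DESeq2 called 1, Soat1. Soat1, which esterifies cholesterol, had 112 ± 2.34 CPM in the adPERK group and 100.3 ± 0.757 CPM in the control group (SD, n = 3 each; log2 fold change 0.16, edgeR adjusted p = 0.182), and Nr1h2, a liver X receptor, had a log2 fold change of 0.04 (edgeR adjusted p = 0.734). All lists share the same libraries with the 8 enzymes, and differences between lists were not tested.

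Calls among the enzymes changed when 1 library was left out, which also leaves fewer libraries, while the direction stayed the same. Of 8 members 0 were called without adPERK replicate 1, without adPERK replicate 2, without control replicate 1 or without control replicate 3. Without adPERK replicate 3 the 1 call was Cyp51, and without control replicate 2 it was Dhcr7. All 8 fitted fold changes were above 0 in each of the 16 fits, with the closest approach at 0.01 for Ebp without adPERK replicate 2. Hsd17b7 was at 0.19 without adPERK replicate 1, and Dhcr7 ranged from 0.57 to 0.80 with 1 library left out. With all 6 libraries and other filters, scalings or tools, 2 to 5 of 8 were called, the 5 by DESeq2, which added Tm7sf2, Nsdhl and Dhcr7 to Cyp51 and Msmo1. Hsd17b7, Ebp and Sc5d passed in none of the 16 fits.

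**Figure D5:**
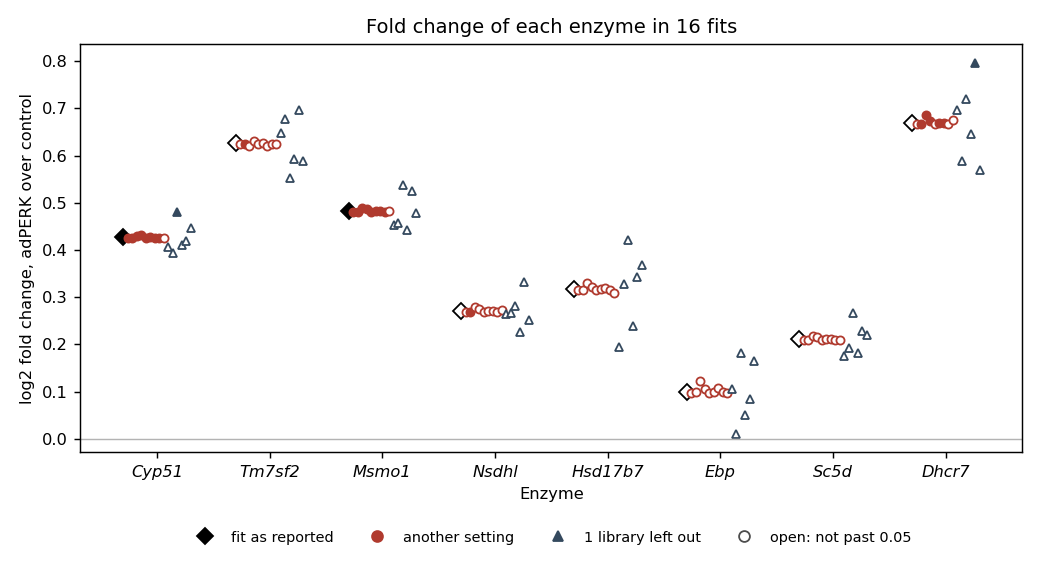
Log2 fold change of adPERK over control (y axis) for each enzyme (x axis) in 16 fits; the diamond is the fit as reported, circles are other settings of the analysis and triangles leave out 1 library, and filled symbols passed an adjusted p of 0.05. Settings move a fold change less than the library left out does, and each value is above 0.

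RefSeq lists no gene that overlaps any of the 8 in GRCr8, but Vps51 lies close beside Tm7sf2 and Cetn2 close beside Nsdhl. It also lists a pseudogene of Cyp51 and 1 of Nsdhl, and whether reads were shared with them was not tested.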

How the data were processed

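RNA-seq counts came from 6 libraries of H9c2 cells, 3 labelled adPERK and 3 labelled control, each made from 1 ug of total RNA per the labels. The authors' deposited table gives whole-number counts per gene, used as deposited. It also holds a normalized signal, which the authors made by dividing the counts by a size factor and which was not used here, log2 fold changes with their errors, of which some are quoted by name, a test score, and p-values with adjusted p-values, per the file headers. Per the submitters' processing notes, Bowtie 0.12.2 and mm9, a mouse build, were used, although the gene names are rat. How reads were counted is not stated in those notes or the labels. Another table holds 6 columns that could not be matched to any label and was left out.

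In edgeR 4.0.16 (R 4.3.3), filterByExpr with a minimum count of 10 removed low entries and TMM set the scale. glmQLFit and glmQLFTest compared the groups over all entries, with Benjamini-Hochberg adjustment at 0.05. Each standard error is the fold change over the root of its F statistic. Alternatives used DESeq2 1.42.0, limma 3.58.1 voom, other filters and scalings, a replicate block and each library left out. The steps were tested on simulated data. The 8 members and all gene lists were chosen with earlier results of these data known. Named genes are the members, the called genes of each list, or its 2 highest in CPM where none was called, and the 5 most similar profiles. Myog was named after its values were seen, as the single marker called. Tnnt2, Col1a1, Krt8 and Cd14 were also named by level after the values were seen. Cyb5a and Cyb5r1 were then named by unadjusted p, and Lum because its groups did not overlap. Some genes that the rule names are not reported here. Levels per coding length were planned but not computed, because no length table was used. Intervals cover the spread between libraries, and counting errors cover counting alone.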

Additional observations from a re-analysis of the deposited data

How the results depend on the processing

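The median log2 fold change of the 8 enzymes, 0.37, stayed between 0.32 (without control replicate 1) and 0.45 (without adPERK replicate 3) over all 16 fits, and none of the 8 fold changes changed sign. Among the other genes named, Eif2ak3 ranged from -0.0200 to 0.0602 and Cyb5r3 from -0.0021 to 0.0548 with 1 library left out, and neither passed the threshold in any fit. The number of calls was less stable. Against 61 entries called and 2 of 8 enzymes, DESeq2 gave 392 and 5, limma voom 110 and 3, the fit without a low-count filter 94 and 3, robust estimation 132 and 3, and counts divided by 6 gave 93 and 3. Leaving out 1 library gave 12 to 38 entries and 0 to 1 enzymes, with 52.2% to 71.4% of the calls higher, against 73.8% in the fit as reported and 63.5% with DESeq2. These fits have fewer libraries, and the part of each library was not told apart from that. Replicate numbers did not pair the libraries, since deviations of same-numbered libraries correlated at -0.0631, 0.0114 and 0.029. With a replicate block the calls were 9 entries and 0 enzymes. Upstream of lanosterol the 5 calls became 8 with DESeq2, robust estimation or no filter, 0 with the replicate block and 0 to 2 with 1 library left out. The 2 calls for SREBP control became 4 with DESeq2 and 1 without adPERK replicate 1. The 3 for fatty acid genes became 5 with DESeq2, 0 with the block and 0 to 2 with 1 library left out. The shorter sterol motif was in 1 promoter, against 0 for TCACNCCAC. A transcript-length scale could not be run. Tm7sf2 and Ebp had the lowest counts of the set, 311 and 501 in their lowest libraries. The largest SE in the fit as reported was that of Hsd17b7, 0.14, and the part of depth was not tested.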
